A study of Mus musculus with 8 samples.

Results

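Binding of the zinc finger factor Zbtb7a was mapped over Input chromatin in the cortex of the mouse kidney, and the peaks called from it were described here across the genome and its genes. The members were all peaks of the Zbtb7a list on chromosomes 1 to 19 and X, 124616 of the 409098 peaks that the lists of the 3 antibodies hold. Chromatin immunoprecipitation with sequencing was done on 2 Zbtb7a and 2 Input libraries, next to 2 libraries each for Mta2 and Mbd3. All groups came from 2 month old mice of genotype Mta2flx/flx, whose Mta2 alleles carry loxP sites, and the labels name neither a Cre nor a strain or treatment. No group here is labelled as a deletion of Mta2. The cortex was crosslinked with 2 mM disuccinimidyl glutarate for 30 min and 1% formaldehyde for 10 min, sheared to 100 to 1000 bp and sequenced to a stated 100 M paired reads. The Zbtb7a list stands for both mice, so no value below has an SD or an n over animals, no test over samples was possible, and every comparison is a description. The cortex holds many cell types, so a peak cannot be assigned to 1 of them, and a gene with no peak had no signal past the authors' cutoff, which does not show that it was unbound.

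Zbtb7a, also called LRF or Pokemon, joins a BTB domain, through which it forms dimers and recruits corepressors, to a set of zinc fingers that contact GC-rich DNA. It is best known for silencing fetal globin genes in red blood cells, for repressing genes of glycolysis and the Cdkn2a tumour suppressor locus, and for working with the nucleosome remodelling and deacetylase complex (NuRD), to which Mta2 and Mbd3 belong. In the kidney, most of the cortex is proximal tubule, the segment that reclaims filtered solutes, and the glomeruli hold the podocytes that form the filter.

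The sequences around gene starts are shown first because summits near starts had the highest folds on average, though many strong peaks lay elsewhere. RefSeq's table of starts, on GRCm38.p6 with the same coordinates as mm10, gives windows of 300 bases (250 before a start and 50 after it) for 17274 of 21631 protein-coding genes (79.9%). A peak's fold is the authors' own ratio of signal over background at its summit, the base of highest signal. The windows of highest fold over all genes were those of Tmem80 (346), which faces Deaf1, Cdc27 (262), which encodes a subunit of the anaphase-promoting complex and has Myl4 beside it, Etnk1 (250), an ethanolamine kinase of phospholipid synthesis, Commd3 (225), a subunit of the Commander complex of endosomal sorting, Gna11 (172), a G protein alpha subunit, and Mta2 itself (145). Among genes of the kidney lists they were Ggt1 (67.9), a brush border enzyme that breaks down glutathione, Aqp1 (65.8), the water channel of the proximal tubule, Sall1 (61.9), a transcription factor of nephron progenitors, and Npnt (55.3), which encodes a matrix ligand of the glomerulus. The 250 bases before the start are printed for the 5 of these 10 genes where the stretch overlapped no protein-coding gene in the table. They run 5′ to 3′ on the gene's strand. Capitals mark any of 10 motifs, searched on both strands: the GC box GGGCGG, the CCAAT box, the ETS core CCGGAAG, the letters GACCACC, the pyrimidine run CCTTCCCC, part of the CTCF motif (AGGGGGC), the AP-1 motif TGANTCA, the HNF4 motif CAAAGTCC, the E box CACGTG and the letters GACCCC, which were added after these stretches had been seen.
Commd3 (chr2:18672185-18672434, + strand): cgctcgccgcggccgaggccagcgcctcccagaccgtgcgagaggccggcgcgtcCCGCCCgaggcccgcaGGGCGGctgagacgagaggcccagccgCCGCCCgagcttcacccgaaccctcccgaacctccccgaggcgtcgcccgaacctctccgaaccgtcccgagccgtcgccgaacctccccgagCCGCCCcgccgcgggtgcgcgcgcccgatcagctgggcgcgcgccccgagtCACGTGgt
Gna11 (chr10:81545163-81545412, - strand): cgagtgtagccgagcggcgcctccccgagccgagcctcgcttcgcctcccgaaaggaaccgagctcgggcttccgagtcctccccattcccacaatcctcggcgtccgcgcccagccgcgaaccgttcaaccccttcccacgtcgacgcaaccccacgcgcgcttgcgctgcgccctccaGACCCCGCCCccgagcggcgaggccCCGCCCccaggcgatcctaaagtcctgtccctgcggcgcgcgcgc
Mta2 (chr19:8941670-8941919, + strand): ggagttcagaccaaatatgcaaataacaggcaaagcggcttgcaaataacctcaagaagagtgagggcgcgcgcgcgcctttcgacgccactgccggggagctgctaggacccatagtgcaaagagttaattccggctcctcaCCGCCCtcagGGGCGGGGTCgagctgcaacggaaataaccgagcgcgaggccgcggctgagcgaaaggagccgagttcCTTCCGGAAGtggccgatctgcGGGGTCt
Aqp1 (chr6:55336049-55336298, + strand): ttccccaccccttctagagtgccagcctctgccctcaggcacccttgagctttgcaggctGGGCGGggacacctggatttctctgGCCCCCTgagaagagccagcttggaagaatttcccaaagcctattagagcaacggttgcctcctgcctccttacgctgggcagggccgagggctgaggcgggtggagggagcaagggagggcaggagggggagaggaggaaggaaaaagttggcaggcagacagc
Npnt (chr3:132950292-132950541, - strand): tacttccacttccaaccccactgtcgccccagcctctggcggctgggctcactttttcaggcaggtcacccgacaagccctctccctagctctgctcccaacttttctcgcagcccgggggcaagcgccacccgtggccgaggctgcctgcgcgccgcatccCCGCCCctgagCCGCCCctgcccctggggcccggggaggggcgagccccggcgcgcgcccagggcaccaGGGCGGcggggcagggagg

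The 3 stretches chosen over all genes and that of Npnt were rich in CpG, and that of Aqp1 was not. The windows of 300 bases held 51 CpG at Commd3, 48 at Gna11, 30 at Mta2, 32 at Npnt and 8 at Aqp1, against a median of 13.0 over all 21045 windows. The GC box occurred 4 times before Commd3, 2 times before Gna11, 2 times before Mta2, 3 times before Npnt and 1 time before Aqp1. Before Mta2, CCGGAAG was matched 2 times because the ETS core reads on both strands of CTTCCGGAAG, and 1 of its 2 GACCCC matches overlapped a GC box, as did the single one before Gna11. The summits lay 113 bp before the start at Commd3, 205 bp before it at Gna11, 16 bp before it at Mta2, 207 bp before it at Aqp1 and 41 bp before it at Npnt. At Cdc27, whose stretch is not printed, the summit lay 36 bp after the start. The stretch of Commd3 overlaps the long noncoding RNA gene Gm33355 and that of Mta2 overlaps Gm10353.

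Over all windows, a Zbtb7a summit lay inside 8766 of 21045 (41.7%). Windows with a summit had a median of 22.0 CpG and 62.7% GC, and windows without one had 6.0 CpG and 51.3% GC. The share with a summit rose with CpG, from 9.44% of windows with 0 to 4 CpG to 31.4% with 5 to 14, 61.7% with 15 to 24 and 69.8% with 25 or more. The median fold of the occupied windows rose in the same order, from 6.67 to 9.61, 14.5 and 19.1. The strongest 10% of occupied windows, of fold 33.8 or more, had a median of 29.0 CpG and 69.7% GC, and the weakest 10% had 9.0 CpG. CpG-rich starts were both more often and more strongly occupied. The part of base composition in the recovery of these fragments was not tested.

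The GC box, the ETS core, the CTCF part and the E box were more frequent in windows with a summit when windows of every CpG content were counted, and CCAAT and GACCACC were not. GGGCGG was in 46.7% of all windows, in 70.1% of those with a summit and in 30.0% of those without. CCGGAAG was in 11.7% of all windows, with 19.8% of occupied and 5.88% of unoccupied windows holding it. AGGGGGC was in 13.0% of all, 18.1% of occupied and 9.45% of unoccupied windows, and CACGTG was in 7.91%, 10.6% and 5.97%. CCAAT was as frequent in windows with a summit (37.8%) as without (39.0%) and in all (38.5%), and GACCACC stood at 2.78%, 2.79% and 2.79%. CCTTCCCC and CAAAGTCC were slightly more frequent with a summit. CCTTCCCC was in 4.66% of all, 5.17% of occupied and 4.3% of unoccupied windows, and CAAAGTCC was in 1.44%, 1.72% and 1.25%. TGANTCA was in 7.04% of all windows, in 4.68% of occupied and 8.72% of unoccupied ones.

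Among windows with at least 20 CpG, the difference in GGGCGG narrowed to 92.7% of the strongest 10%, 82.2% of the other occupied windows and 76.6% of the unoccupied ones. GACCCC was in 35.9% of the strongest 10%, 21.3% of the other occupied windows and 22.3% of the unoccupied ones, and in 16.4% of all windows at any CpG. AGGGGGC was likewise in 32.4%, 19.8% and 19.8%. CCAAT went the other way, with 28.7%, 35.7% and 31.7%. For the E box CACGTG the values were 10.7%, 12.2% and 11.4%. Its difference between windows with and without a summit was thus not seen at this CpG content. The ETS core CCGGAAG stayed more frequent in windows with a summit, though not most frequent in the strongest. It was in 147 of 722 of the strongest 10% (20.4%) and in 1088 of 4524 other occupied windows. Of the unoccupied windows, 317 of 2394 (13.2%) held it. Another 6 letters added after the stretches had been seen, CCCCCG, were in 65.1%, 41.3% and 47.9%, a pattern close to that of GACCCC, and in 23.5% of all windows. A match shows only that these letters occur in the window, and GACCCC was chosen from stretches that belong to the strongest windows.

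Summits gathered tightly around the start itself. Without chromosome 18, for which the table used has no starts, 12403 of 120759 summits (10.3%) lay within 1 kb of a start, at a median of 22 bp upstream (quartiles 101 bp upstream and 56 bp downstream), and 66.7% of them lay between 200 bp upstream and 100 bp downstream. More of them were upstream than downstream, 58.8% of all and 66.9% of the 3622 with a fold of at least 20. Their median fold was 13.1, against 4.67 for all other summits. The fold dropped within a short distance. Its median was 14.2 under 100 bp from a start, 15.3 from 100 to 300 bp, 6.34 from 300 to 1000 bp and 4.51 from 1 to 3 kb, and it was between 4.56 and 4.83 in every class beyond that. Of 41 summits with a fold of at least 100, 27 (65.9%) lay within 1 kb of a start and 1 was distal.

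**Figure D1:**
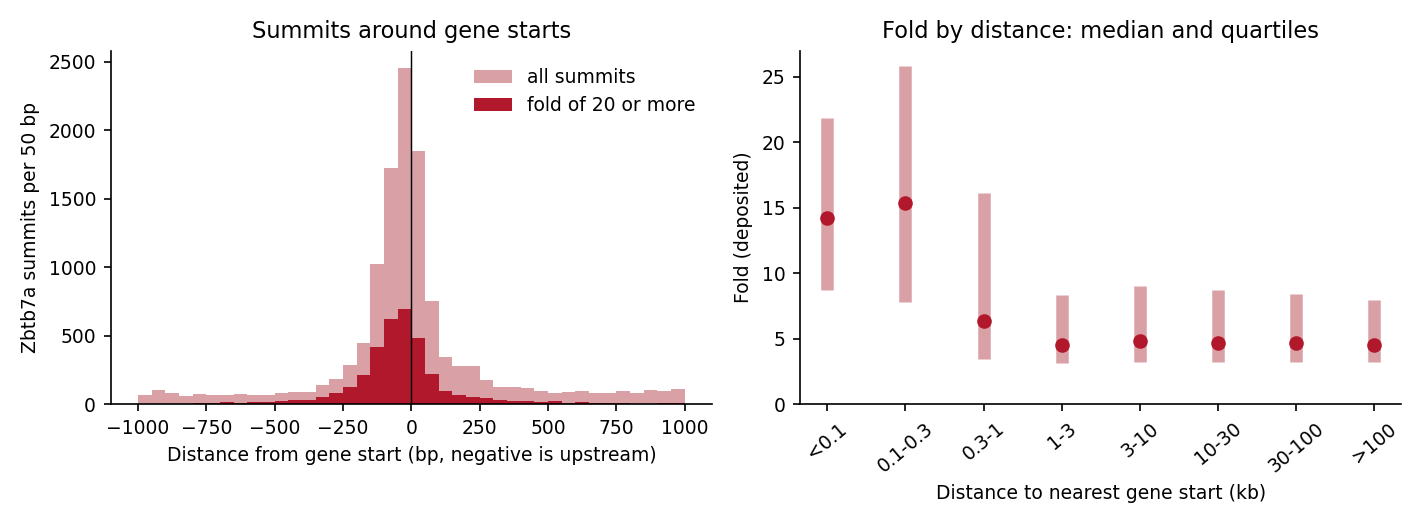
Left, Zbtb7a summits per 50 bp by distance from the nearest RefSeq gene start (bp, negative is upstream), for all summits and for those with a fold of at least 20, without chromosome 18. Right, the median fold (points) and its quartiles (bars) by distance to the nearest start in kb: the median is 14.2 and 15.3 in the 2 nearest classes and under 5 beyond 1 kb.

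The 5′ end carried the factor far more often than the 3′ end. Of the 17274 genes with a strand, 10765 (62.3%) had a summit within 1 kb of the 5′ end and 2789 (16.1%) within 1 kb of the 3′ end. The summit nearest to an occupied 5′ end had a median fold of 14.5. Ends of neighbouring genes can lie close together, so 3′ ends were also taken more than 3 kb from any listed start. Of 13284 such ends, 1910 (14.4%) had a summit, with a median fold of 4.71, close to the 4.67 of summits away from starts.

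Gene ends held a small part of the list and a large part of its strong peaks. Within 1 kb of either end of a protein-coding gene lay 16257 summits (13.0%), with a median fold of 11.3 and a median peak width of 852 bp. A further 64550 (51.8%) lay inside genes, at a median fold of 4.63 and a width of 370 bp. Outside genes, 12569 (10.1%) were within 10 kb of an end, at a median fold of 4.78, and 31240 (25.1%) were distal, which means more than 10 kb from every end, at a median fold of 4.59. In the strongest 10% of the list by fold, 36.2% were at gene ends, 39.0% inside genes, 7.93% in the nearby class and 16.9% distal. A fold of at least 50 was found in 346 summits at gene ends, 248 inside genes and 98 distal ones, so strong sites away from ends were also numerous.

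Distal summits lay a median of 48218.5 bp from the nearest protein-coding end. Of them, 9324 were over 100 kb away and 994 over 500 kb. Long noncoding RNA genes contained 6821 (21.8%), and 1281 (4.10%) lay within 1 kb of a listed start of one. The strongest, with a fold of 112, was at chr14:20228136-20230935, 31023 bp from Kcnk16, a potassium channel gene. The next lay 32389 bp from Lrrc74a (fold 93.5, chr12:86800434-86802838), 68188 bp from Cpn2, the regulatory subunit of carboxypeptidase N, in a peak overlapping the noncoding gene Gm26562 (fold 91.0, chr16:30187064-30189694), and 36992 bp from 1700001O22Rik (fold 84.4, chr2:30757848-30761255). Those after them lay 12282 bp from Btbd16 (fold 83.5, chr7:130836723-130838804), 145875 bp from Srek1, a splicing regulator gene, in a peak overlapping the noncoding genes Gm46398 and Gm30551 (fold 83.4, chr13:103591188-103593236), 13737 bp from Heatr6 (fold 82.7, chr11:83796935-83797924) and 17979 bp from Armc12 (fold 82.4, chr17:28512131-28514408). All 8 belonged to clusters, of 3 to 19 summits as defined below. Of all summits, 51.2% lay in clusters of 3 or more, and of distal summits 41.4% stood alone. Each of the 8 intervals overlapped a peak of the Mta2 and of the Mbd3 list. The share of all Zbtb7a peaks that do so is not given here, so this sharing cannot be called particular to strong distal sites. The nearest gene is given as a landmark and not as a target.

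Neighbouring summits were often a few kilobases apart, with long empty stretches between groups. The distance between neighbours had a median of 4873 bp and a mean of 20609 bp, with quartiles at 1900 and 14664 bp. At most 1 kb separated 9.43% of neighbours, 26.4% were at most 2 kb apart and 8.07% more than 50 kb apart. The smallest distance was 238 bp, 0.931% were at most 500 bp, and the most frequent class of 100 bp was 900 to 1000 bp, with 2532 distances. Peak callers merge signal that overlaps, and fragments were up to 1000 bp long, so the scarcity of shorter distances cannot be told apart from the resolution of the assay.

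**Figure D2:**
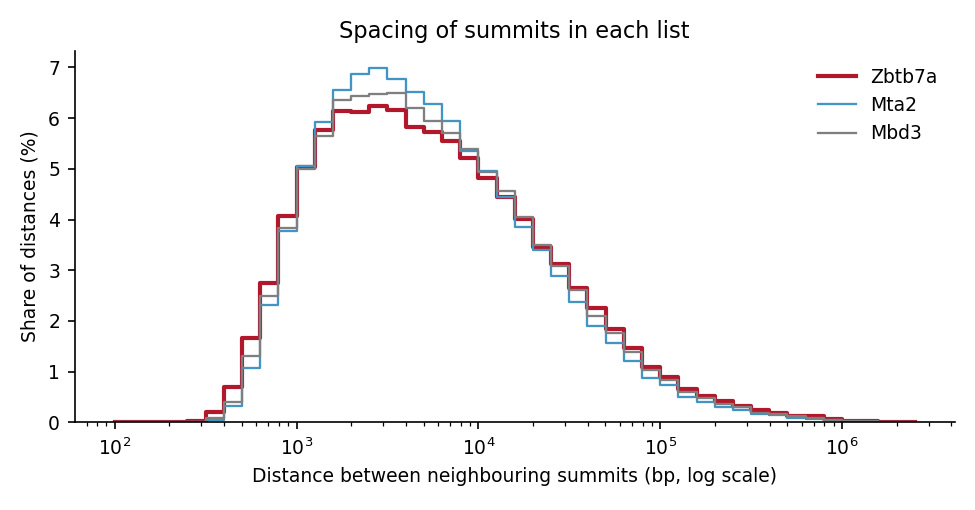
Share of distances between neighbouring summits (%) by distance (bp, log scale) for the full Zbtb7a, Mta2 and Mbd3 lists. The Zbtb7a curve is broad, with its median at 4873 bp, and lies above the other curves below 1 kb.

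Zbtb7a summits were closer together than those of the NuRD subunits when lists of equal length were taken. Among the 100000 peaks of highest −log10 q in each list, 6.19% of Zbtb7a neighbours were at most 1 kb apart, against 3.21% for Mta2 and 4.54% for Mbd3, and the medians were 6089, 6793 and 6515.5 bp. Runs of at least 10 summits numbered 465, 255 and 341. Over the full lists, which differ in length, the order of runs turned, with 970 for Zbtb7a, 1201 for Mta2 and 993 for Mbd3, and the median distance was 4634 bp for Mta2 and 4878 bp for Mbd3, beside 4873 bp for Zbtb7a. The Zbtb7a peaks were also narrower, with a median width of 393 bp in the full list, against 450 and 422 bp, and narrow peaks leave more room for separate summits. The part of peak width in this difference was not tested, and without values per mouse the difference has no test.

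Chaining summits at most 5 kb apart gave 61536 groups. Of the summits, 37047 (29.7%) stood alone and 11892 groups were pairs. The 12597 clusters of 3 or more held 63785 summits (51.2%). Clusters of 10 or more numbered 970 and held 13932 summits (11.2%), and 121 clusters had 20 or more. The strongest summit of a group grew with its size, from a median fold of 4.60 for singles to 8.12 for pairs, 14.7 for 3 to 9 summits, 29.2 for 10 to 19 and 36.3 for 20 or more. The maximum over more summits is higher by construction, and the median over all summits of those classes moved less, from 4.60 to 4.97, 5.23, 5.42 and 5.13. Groups made of distal summits only were 34.9% of singles and 2.48% of clusters of 20 or more. A summit within 1 kb of a start was present in 13.2% of singles and 52.5% of clusters of 20 or more, without chromosome 18. By construction, a larger group is more likely to include a summit at a start and less likely to be all distal. Counted by summit, 35.5% of those at gene ends stood alone, against 29.7% of all. In clusters of 10 or more were 6.93% of those at gene ends, against 11.2% of all. Of the clusters of 3 or more, 3668 included a summit within 1 kb of a start. The strongest member was at a start in 2438 of them (66.5%), while on average 30.0% of their summits were at starts. The share with the strongest at a start fell with size. It was 2221 of 3189 for 3 to 9 summits, 197 of 416 for 10 to 19 and 20 of 63 for 20 or more. More summits compete to be the strongest in a larger cluster, so such a fall also arises by construction.

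The cluster with most summits lay over no protein-coding gene. It had 53 summits over 90.2 kb (chr8:123538886-123629107) and covered the array of 5S ribosomal RNA genes, the tandem repeats that encode the small RNA of the large ribosomal subunit and are read by RNA polymerase III. The table lists 50 entries there, 48 of them as rRNA, and each had a summit within 0.5 kb. Entry starts were a median of 1698 bp apart and summits a median of 1693.5 bp apart, so there was about 1 summit per repeat. The summits lay a median of 78 bp from the middle of the nearest entry, and 49 were within 200 bp of it. Folds over the whole cluster ran from 2.61 to 12.2 with a median of 6.90. The lowest, 2.61 and 2.77, belonged to summits past the last listed entry. Mta2 had 58 summits and Mbd3 54 in the same stretch. How reads that match several repeats were placed is not given in the sources used here, so the fold of a single repeat is uncertain and binding at 1 repeat cannot be told apart from binding at all.

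**Figure D3:**
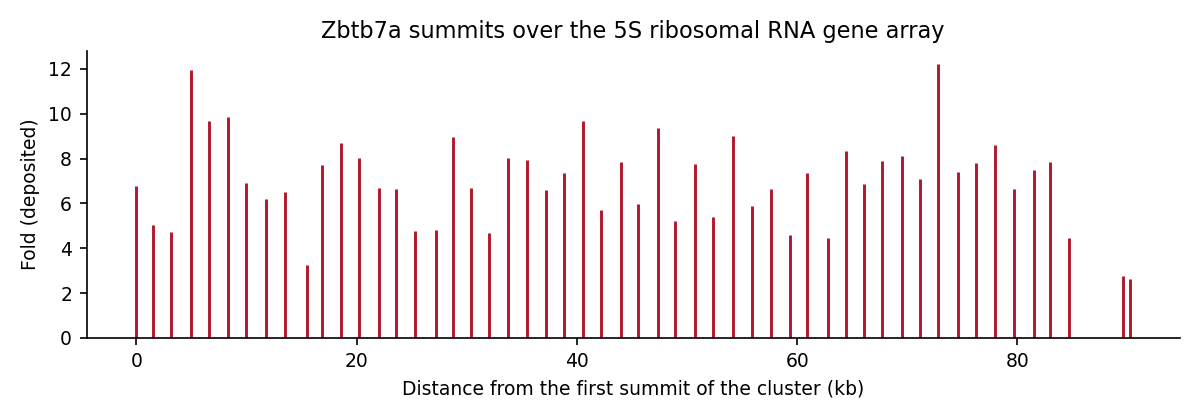
Fold (deposited, vertical axis) of each of the 53 Zbtb7a summits of the cluster that covers the 5S ribosomal RNA gene array, by distance from its first summit (kb). The summits at 84.7, 89.6 and 90.2 kb lie past the last listed entry of the array. Each line is 1 summit, and the regular spacing has a median of 1693.5 bp.

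The other large clusters covered single genes or gene clusters. Mtss1, a membrane-bending regulator of actin, had 52 summits over 94.9 kb (chr15:58975921-59070866), the strongest of fold 36.5 and 35974 bp inside the gene. Rbm47, an epithelial RNA-binding protein, had 44 summits over 95.2 kb with a highest fold of 40.7. Myh9, the nonmuscle myosin heavy chain that podocytes need and in which variants cause kidney disease, had 43 summits over 76.2 kb with a highest fold of 36.3. At Timp3, a metalloprotease inhibitor gene inside an intron of Syn3, 41 summits spanned 63.4 kb and the strongest, of fold 67.4, lay 56 bp after the Timp3 start. The Hoxb cluster from Hoxb9 to Hoxb3, genes that set positional identity along the body, had 41 summits, the strongest of fold 39.8 and 59 bp from an end of Hoxb7. Upstream of Ppara, the transcription factor of fatty acid oxidation, 40 summits lay over Lncppara and the let-7 genes Mirlet7c-2 and Mirlet7b (chr15:85653576-85724971), the strongest of fold 39.8.

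The longest stretches without a summit lay on chromosomes X and 8. One of 4867090 bp on chromosome X (chr X, 23975050 to 28842138) held 17 protein-coding genes, among them Slx, a multicopy gene of male germ cells, and one of 3304245 bp directly after it held 12, among them Spin2f. A stretch of 4119598 bp on chromosome 8 held 1 gene, Cdh8, a cadherin of neurons. Mta2 had 1, 5 and 3 summits and Mbd3 3, 3 and 2 in the first X stretch, the second and the chromosome 8 stretch. The X stretches are rich in near-identical gene copies, so the handling of reads with several matches matters there too. In all, 103 distances exceeded 1 Mb. Chromosome X had 2085 summits, 12.47 per Mb of the span they cover, against 39.8 on chromosome 3 and 74.7 on chromosome 11, the lowest and highest autosomes. Its genes were not as sparse, at 5.78 per Mb against 5.80 on chromosome 12. The share of the list on X was 1.67%, and it was 1.78% for Mta2 and 1.77% for Mbd3.

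Genes were then counted by the summits in their span and 5 kb on either side. At least 1 summit was found for 79.2% of the 21631 protein-coding genes, and the median was 3 summits, or 0.735 per 10 kb. At least 10 summits were found for 2511 genes (11.6%) and at least 50 for 104. Long genes hold more summits, and the window of genes with at least 10 had a median of 105.8 kb, against 27.3 kb over all. Arhgap26, a GTPase-activating protein, held most, with 134. It was followed by Msi2 (113), an RNA-binding protein of stem cells, Gse1 (112), a protein of a histone deacetylase corepressor complex, Syn3 (110), whose span includes Timp3, and Tns1 (103), a focal adhesion protein. Next came Pde4d (98), a cyclic AMP phosphodiesterase, Arid1b (97), a subunit of the BAF remodelling complex, Zbtb20 (96), a zinc finger repressor, Itpr1 (92), the calcium channel of the endoplasmic reticulum, and Prkce (91), a protein kinase C. Their densities ran from 0.747 per 10 kb at Pde4d to 4.59 at Tns1.

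Genes of kidney cell types held more summits than protein-coding genes at large. The 10 kidney lists have 203 different genes, of which 177 (87.2%) had a summit within 1 kb of an end, against 65.6% of all, and 74 (36.5%) had at least 10, against 11.6%. Their median was 7 summits and 1.80 per 10 kb, against 3 and 0.735, in windows with a median of 39.9 kb. The difference was present at every window length. In windows under 20 kb the median density was 3.04 per 10 kb for 45 kidney genes and 0.708 for all genes, and from 20 to 60 kb it was 2.18 and 0.872. From 60 to 150 kb it was 1.15 and 0.629, and from 150 kb up 0.580 and 0.386. Kidney genes had a summit near an end in 88.9%, 91.4%, 92.0% and 63.0% of these classes, against 49.5%, 74.5%, 77.4% and 69.0% of all genes, so the longest class was the exception. Among genes with at least 3 summits, the strongest was inside the gene, over 1 kb from its ends, in 43.2% of 176 kidney genes and 34.3% of 10858 genes, and near an end in 38.6% and 48.7%. Its median fold was 22.8 in kidney genes and 20.9 in all. A start inside a gene's span was not counted as an end. Neither transcripts nor the accessibility of chromatin were measured here, so the labelled tissue was checked only through these peaks.

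**Figure D4:**
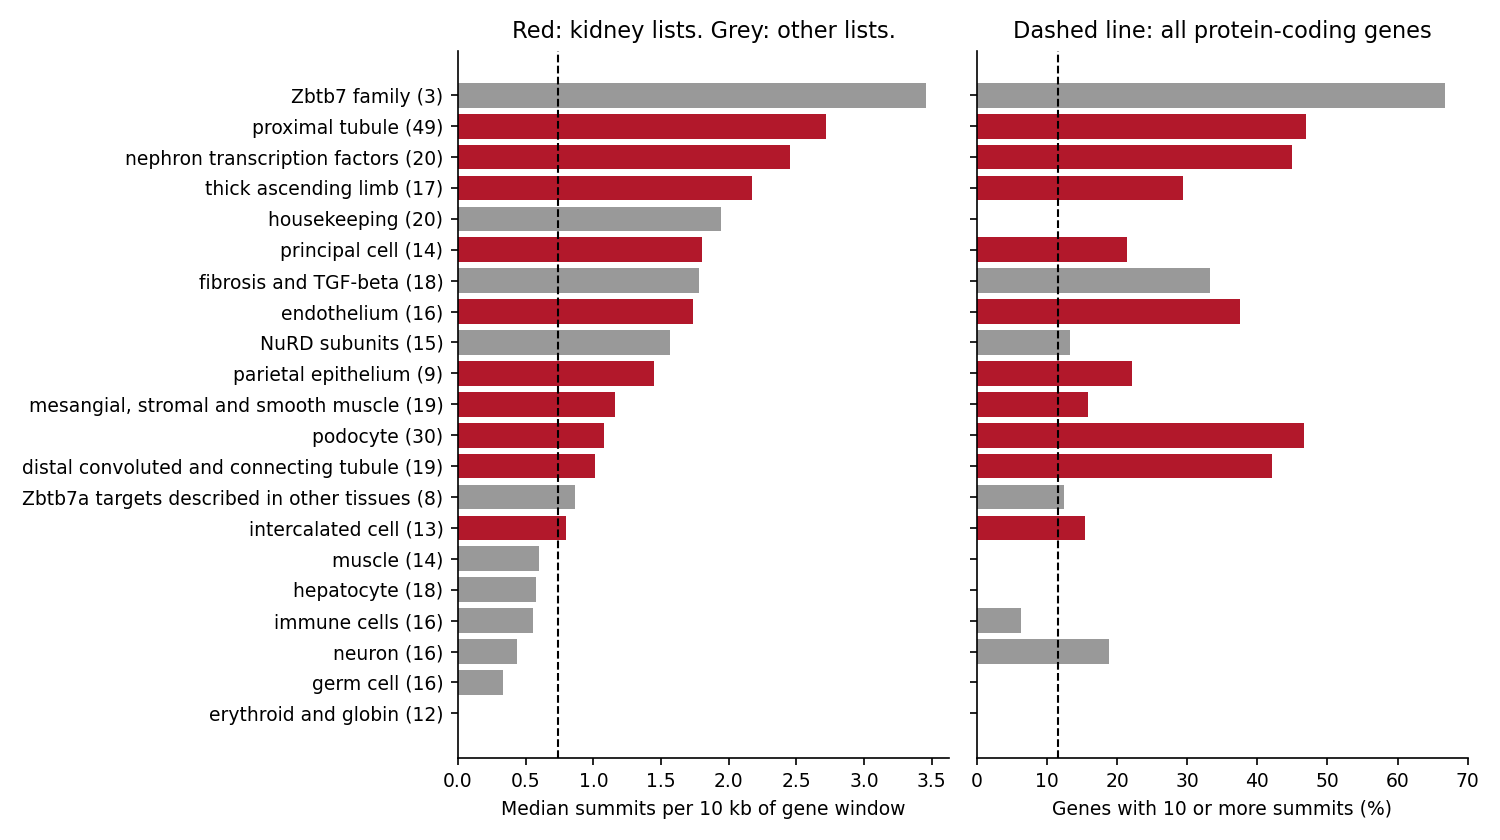
Left, the median number of Zbtb7a summits per 10 kb of gene window for each gene list, and right, the share of its genes with at least 10 summits (%), with the number of genes in parentheses, kidney lists in red and others in grey. Dashed lines give all protein-coding genes, 0.735 per 10 kb and 11.6%: the proximal tubule list stands at 2.72 and 46.9%, and the erythroid list at 0.

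Proximal tubule genes were the densest of the kidney lists. Of 49, 47 had a summit near an end and 23 had at least 10, with a median of 9 summits and 2.72 per 10 kb. Slc4a4, the basolateral bicarbonate cotransporter, held 52 summits over its 455.8 kb window, and none was within 1 kb of an end. Its strongest, with folds of 35.7 and 34.4, lay 196.6 and 234.0 kb from the 5′ end of the span. A listed start also lies inside the span, 37552 bp downstream of the first of these summits and close to the second. Dab2, an endocytic adaptor, held 35 and Lrp2, the endocytic receptor megalin, 29, and their strongest summits (folds 35.9 and 43.9) lay 113 and 140 bp upstream of a start. Slc7a7, the basolateral cationic amino acid exchanger, held 27, with the strongest of fold 37.5 inside the gene. Compact genes had the highest densities, and their 5 kb flanks make up much of the window. Ttc36 held 9 summits in 13.6 kb (6.64 per 10 kb), of which 3 lay in its span. Slc22a12, the urate transporter, held 11 (6.39), Pdzk1ip1 8 (5.27), Fbp1, an enzyme of gluconeogenesis, 17 (5.07) and Slc22a8, an organic anion transporter, 15 (4.90), with 6, 5, 11 and 13 of these in the span. Pck1, the enzyme that commits carbon to gluconeogenesis, held 10 summits (6.17 per 10 kb), 5 of them in its span, the strongest of fold 65.3 and 332 bp upstream of its start, with others of fold 27.9 and 17.6 past its 3′ end. At Pdzk1ip1 the median over the 8 summits was a fold of 21.4, against 5.00 for the whole list, so most of its summits were strong.

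Of 20 transcription factors of the nephron, 17 had a summit near an end and 9 had at least 10, with a median of 2.46 per 10 kb. Esrrg, a nuclear receptor that drives mitochondrial genes, held 68 summits. Hnf4a, the nuclear receptor of proximal tubule identity, held 30, and its 4 strongest, of fold 86.6, 53.3, 43.4 and 37.5, all lay inside the gene, 53.6, 43.1, 34.1 and 28.4 kb from the 5′ end of its span. The first of these was also 13304 bp downstream of a listed start inside the span. Pax8, which directs nephron formation, also held 30, and its strongest (fold 34.4) lay 3808 bp upstream of its start, followed by 1 of fold 32.9 inside the gene. Emx2, which is needed for the early kidney, held 10 in 16.7 kb (6.0 per 10 kb), of which 3 lay in its span.

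Podocyte genes held many summits in long windows. Of 30, 26 had a summit near an end and 14 had at least 10. The median was 9 summits and 1.08 per 10 kb in windows with a median of 98.2 kb. Over all genes with windows of 60 to 150 kb, the median was 6 summits and 0.629 per 10 kb, and 30% had at least 10. The part of gene length in the podocyte counts was not tested. Arhgap24, a GTPase-activating protein of podocyte shape, held 73 and its strongest was of fold 38.2. Actn4, the actin crosslinker in which mutations cause focal segmental glomerulosclerosis, held 36 in 79.1 kb, a density of 4.55, with folds of 48.0 and 41.8 at 36.8 and 50.5 kb from its 5′ end and smaller summits along most of its length. Synpo, which encodes synaptopodin, held 31, Clic5, an intracellular chloride channel protein of foot processes, 30, and Magi2, a scaffold of the slit diaphragm, 29 over 1495 kb (0.194 per 10 kb) with none near an end. Trpc6, a calcium channel of the filter, held none in 146.9 kb.

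**Figure D5:**
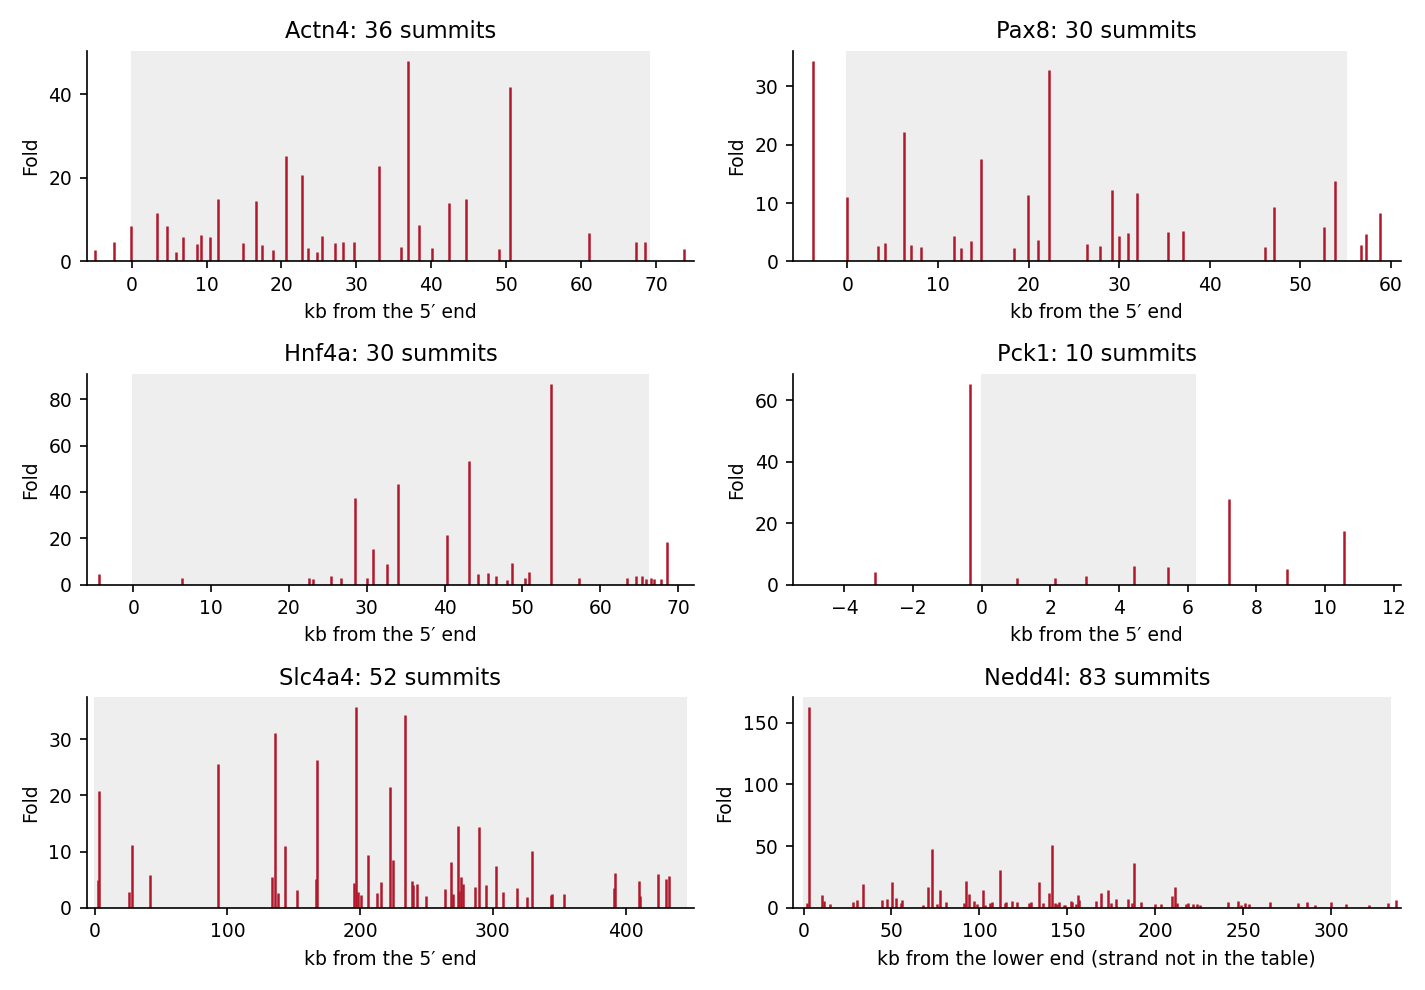
Fold (deposited) of every Zbtb7a summit in the window of 6 kidney genes by distance from the gene's 5′ end in kb, or from its lower end for Nedd4l, whose strand is not in the table. Each line is 1 summit and the grey band is the gene's span: at Hnf4a and Actn4 the tallest summits, of fold 86.6 and 48.0, stand inside the gene, and at Pck1 the tallest, of fold 65.3, stands just upstream.

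In the thick ascending limb, 16 of 17 genes had a summit near an end, at a median of 2.18 per 10 kb. Cldn10, a paracellular sodium pore, held 26 and Enox1 21. The distal convoluted and connecting tubule list had 14 of 19 (73.7%) near an end, against 65.6% of all genes, and 1.01 per 10 kb, against 0.735. It included Nedd4l, the ubiquitin ligase that limits the epithelial sodium channel, which held most of any listed kidney gene, 83 summits in 343.3 kb. None was within 1 kb of an end, and 1 had a fold of 162, 3.18 kb from the gene's lower end. Stk39, the kinase that activates sodium chloride cotransporters, held 31, with the strongest (fold 43.1) 192 bp upstream of a start. In the collecting duct, 13 of 14 principal cell genes and 8 of 13 intercalated cell genes had a summit near an end, with medians of 1.81 and 0.796 per 10 kb. The intercalated cell list (61.5%) was thus below the share of all genes and near their density. Tfcp2l1, a transcription factor of these cells, held 23 and reached a fold of 57.9, Scnn1a, a subunit of the epithelial sodium channel, held 12, Car12, a carbonic anhydrase, 19 and Atp6v0a4, a proton pump subunit, 14. The intercalated cell factor Foxi1 and the pump subunit Atp6v1g3 held none.

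Outside the tubule, 15 of 16 endothelial genes had a summit near an end, at 1.74 per 10 kb. Flt1, a VEGF receptor, held 26, Pecam1, an adhesion molecule, 17 and Egfl7, a secreted endothelial factor, 13 in 21.6 kb (6.02 per 10 kb). Parietal epithelium, with 8 of 9, was led by Pax2 (22) and Ncam1 (15), and mesangial, stromal and smooth muscle genes, with 16 of 19, by Meis1 (13) and the PDGF receptor Pdgfrb (12). Among the latter, the collagen gene Col3a1 and the smooth muscle actin Acta2 held none, whereas the Mta2 list had 3 and 2 summits there. Fibrosis and TGF-beta genes had 16 of 18 near an end, led by Smad3, which carries TGF-beta signals to the nucleus, with 52 summits, the strongest of fold 55.3 and 220 bp upstream of its start, and Col4a1, a basement membrane collagen, with 44 and a highest fold of 78.4. Ski, which restrains Smad proteins and is named here after its values were seen, held 33 summits, 1 of which had the highest fold of the whole list, 465.

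The hepatocyte, immune, neuronal, muscle, germ cell and erythroid lists stood below all genes in both the share near an end (65.6%) and the density (0.735). The share with at least 10 summits was 18.8% in the neuronal list, above the 11.6% of all genes. It was 6.25% in the immune list and 0 in the hepatocyte, muscle, germ cell and erythroid lists. A summit near an end was found for 6 of 18 hepatocyte genes, 6 of 16 immune genes, 7 of 16 neuronal genes, 3 of 14 muscle genes, 3 of 16 germ cell genes and 2 of 12 erythroid and globin genes, with medians of 0.573, 0.556, 0.439, 0.598, 0.331 and 0 per 10 kb. Single members were denser, among them Csf1r, the macrophage growth factor receptor, with 10 summits (2.81 per 10 kb) and Mb, the muscle oxygen store myoglobin, with 8 (1.77). Rbfox3, a neuronal splicing factor, and Syt1, a synaptic vesicle protein, held 31 and 13 over long windows, at 0.718 and 0.248 per 10 kb. The median over all genes in windows of 150 kb or more was 0.386. In the hepatocyte list the most was 4, at the apolipoprotein genes Apoa1, Apoa2 and Apob, with highest folds of 19.3, 53.9 and 10.7. Housekeeping genes differed from both kinds of list. All 20 had a summit near an end, yet their median was 3 summits and none reached 10, and in windows with a median of 15.4 kb the density was 1.95 per 10 kb. The highest counts were 7 at Actb and at Sdhb, and only 1 of the 7 at Actb lay in its span.

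The genes of the NuRD complex carried Zbtb7a at an end in 15 of 15 cases, against 65.6% of all genes, with a median of 5 summits and 1.57 per 10 kb. This was not particular to them, since all 20 housekeeping genes also had a summit near an end, at 1.95 per 10 kb. Gatad2a, a linker subunit, held 24 and Mbd2, a reader of methylated DNA, 17, followed by the remodelling ATPases Chd3 (9) and Chd4 (7) and the histone chaperone Rbbp4 (8). Mta1 and Mta3 held 6 each, Mta2 and Mbd3 5, the deacetylase Hdac1 and Cdk2ap1 4, Chd5 and Gatad2b 3, and Hdac2 and Rbbp7 1. The single summit of Rbbp7 had a fold of 40.9, and Chd5, the ATPase known mainly from neurons, reached 4.45. Mta2, with its fold of 145, was the strongest of the complex, and the next was Hdac1 at 49.1.

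In its own family, Zbtb7a summits were dense over Zbtb7a and Zbtb7b and less so over Zbtb7c. Zbtb7a itself held 13 summits in 27.0 kb (4.82 per 10 kb), the strongest of fold 34.6 and 6 bp after a start that lies inside the gene's span. Zbtb7b, which directs T cells to the helper lineage, held 9 (3.46 per 10 kb) with a highest fold of 56.3. Zbtb7c held 36 over 338.4 kb (1.06 per 10 kb). The median fold of the summits was 3.55 at Zbtb7a, 3.78 at Zbtb7b and 6.25 at Zbtb7c, against 5.00 for the whole list. In the same windows the Mta2 list had 7, 5 and 30 summits. Of 8 genes described as Zbtb7a targets in other tissues, 6 had a summit near an end, a share near the 65.6% of all genes. Pfkp, a glycolytic phosphofructokinase, held 10 and reached a fold of 10.4, the pyruvate kinase gene Pkm 8 (17.5), the glucose transporter gene Slc2a3 4 (4.67) and the tumour suppressor Cdkn2a 1 (4.79). The proapoptotic gene Bcl2l11 held 9 with a fold of 46.9 at 141 bp upstream of its start, and the adhesion molecule gene Mcam 5 (20.8), all of them in the flanks. The embryonic globin genes Hbb-y and Hbb-bh1 held none, and neither did they in the Mta2 or Mbd3 lists.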

How the data were processed

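Peaks were called by the authors with tools that, per the submitters' processing notes, include Bowtie2, MACS2, bedtools and deepTools on mm10. Tool versions, settings, the role of Input and the way the mice were combined are not stated in the labels. The deposited list gives each peak's interval, a score, a fold (ratio) over background, −log10 p and −log10 q values and the summit offset, without a header. The lowest −log10 q among Zbtb7a peaks was 1.30. The score and −log10 p columns, as deposited by the authors, were not used. Fold and −log10 q served to describe, rank and filter within a list. The depth of each library is unknown beyond the stated 100 M reads, so its precision cannot be given.

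Summits were placed against RefSeq genes of GRCm38.p6 with Python 3.11.15, numpy 2.4.6, pandas 2.3.3 and scipy 1.17.1, and figures used matplotlib 3.10.9. The gene table holds no strand, which came from the table of starts. Chains used 5 kb, gene ends 1 kb, distal 10 kb and gene windows 5 kb flanks. All 357 listed symbols matched. Windows of neighbouring genes can share summits. The counting scripts were tested on simulated positions. The named genes were those of the kidney lists with most summits (15), most per 10 kb (10) or none, the 2 with most in each list, the 10 with most over all genes, all NuRD, Zbtb7 and target genes, the 8 largest clusters, the 3 longest empty stretches, the 8 strongest distal summits and 10 start windows. Some genes and regions that this rule names are not reported here. Other genes appear as members or neighbours of those regions. The peaks, lists and rules were chosen with earlier results of these data known. Alternatives changed the threshold, the summit, the windows and chromosome X.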

Additional observations from a re-analysis of the deposited data

Results flagged for a closer look

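Chromosome Y was outside the described chromosomes, and the Zbtb7a list held 80 peaks on it, with a median fold of 3.48 and a range from 1.56 to 27.0. They drew attention because they are signal in data that no comparison used, and no control fold stands beside them. On the same chromosome the Mta2 list held 143 peaks and the Mbd3 list 156.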

How the results depend on the processing

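With −log10 q of at least 10 the median distance was 7260 bp, with 7249 clusters of 3 or more, 19533 distal summits and 1374 genes with at least 10 summits. With a fold of at least 5 these were 9445 bp, 4693, 14295 and 874. The median distance was 5972 bp with summits under 1 kb apart counted once and 4805 bp without chromosome X, outside the 95% interval of 4815 to 4931 bp. Chaining at 2 kb gave 6809 clusters, a window of 3 kb gave 28105 summits near gene ends, and a limit of 50 kb gave 15290 distal summits. The other 23 values stayed within 1.5 times the reported count or inside that interval, among them every count of genes with a summit near an end. At a fold of at least 5, 12.8% of kidney genes and 4.04% of all genes had at least 10 summits, and 12 of the 15 kidney genes with most summits were the same genes. Of 498 counts for 83 named genes, 76 left the exact binomial interval of the reported count.

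No paired analysis was possible because each list stands for both mice, and for the same reason no fit without 1 mouse was run. Depth per library was not analysed here, so weak peaks and empty genes reflect the authors' threshold.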

Other observations

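Noncoding genes differed widely in how often a Zbtb7a summit lay in them or within 0.5 kb. The share was 39.2% of 408 tRNA genes, which RNA polymerase III reads as it does the 5S array, 77.8% of 63 rRNA entries, most of them in that array, and 52.9% of 12697 long noncoding RNA genes. It was 16.9% of 1228 miRNA genes, 5.22% of 1340 snoRNA genes, 6.48% of 1003 snRNA genes and 7.11% of 9852 pseudogenes, against 75.2% of protein-coding genes counted the same way. The Mta2 and Mbd3 lists gave 39.5% and 40.9% for tRNA genes. Gene length differs between these classes, and how reads with several matches were placed is not given in the sources used here.

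A group of 25 Zbtb7a peaks combined a fold under 3 with a −log10 q above 100, on 7 chromosomes and with a median width of 427 bp. Among the large clusters, those over Zmiz1, a coactivator gene, and over Actn4, Eif3k and Map4k1 had 38 summits each, with highest folds of 48.2 and 48.0, and those over Tns1 and Ndrg1, a stress-response gene, had 37 each, with 26.7 and 58.1.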
